A study of Mus musculus with 10 samples.

Results

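Intergenic regions far from any gene were analysed in ATAC-seq peak lists from 10 mouse liver tumour libraries. ATAC-seq uses a transposase that cuts and tags open DNA, so that a peak marks a stretch of accessible chromatin. Peaks of all lists were joined into 12266 regions on chromosomes 1 to 19 and X (mm10). Of these, 616 were called in 2 to 9 lists, overlapped no protein-coding gene body and lay more than 1 kb from both ends of every gene of any biotype. Where "the intergenic regions" is written, these 616 are meant. For comparison, 6932 regions in 2 to 9 lists reached within 1 kb of an end of a protein-coding gene (gene-end regions), and 9286 regions of any kind were in 2 to 9 lists. The members were thus chosen by the number of lists that call a region, and that number itself is described but not tested. The counts of members per library compared below are built from the same calls, so their tests are not independent of the rule.

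All 10 tumours arose in FVB mice with LAP-tTA and TRE-MYC, a tetracycline-controlled activator under the liver promoter of Cebpb that drives a MYC transgene after doxycycline is taken away. Homo tumours (n = 3, about 100 days of age) were Arid1a fl/fl with Alb-Cre, which is Cre recombinase under the albumin promoter of hepatocytes. Het tumours (n = 3, about 70 days) were Arid1a fl/+ with Alb-Cre. WT tumours (n = 4, about 55 days) were Arid1a fl/fl without Cre, so their floxed alleles stayed whole. Genotype, age and, against WT, Cre itself cannot be told apart. Frozen tumour was taken at death, and the titles do not say that libraries came from separate mice, so p-values measure the spread between libraries. In bulk tumour, fewer cells with an open region and less opening per cell cannot be told apart.

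Most enhancers lie away from promoters, often a long way from the gene they act on, and open when pioneer factors such as FOXA and lineage factors such as HNF4A and C/EBP bind in hepatocytes. Arid1a encodes a subunit of the SWI/SNF (BAF) remodelling complex, which slides and evicts nucleosomes and is known for keeping distal enhancers open. Other distal peaks mark CTCF sites, promoters of long noncoding RNAs (lncRNAs) or repeats on which reads pile up. The nearest protein-coding gene is given below as a place name. Whether a region acts on that gene was not measured.

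Depth differed between libraries, and all counts below are of called regions. The background recovered from the deposited values was 0.914, 0.464 and 1.61 tags per 200 bp in Homo 1 to 3, against 0.696, 0.655 and 0.738 in Het 1 to 3 and 1.74, 1.13, 0.985 and 1.40 in WT 1 to 4. The smallest peak a list held rested on 6 to 10 tags at its summit. Homo 3 stood apart from the other Homo libraries and called 9587 regions, against 3863 in Homo 1 and 1748 in Homo 2. The Arid1a deletion was not checked with these regions, and genotypes are those of the labels.

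The 616 regions were called in few libraries. There were 212 in 2 lists, 123 in 3, 74 in 4, 56 in 5, 49 in 6, 50 in 7, 29 in 8 and 23 in 9, with a median of 3 lists, against a median of 6 over the gene-end regions in 2 to 9 lists. Beyond these limits lay 484 intergenic regions called in 1 list and 122 called in all 10. Of intergenic regions of any list number, 39.6% were in 1 list, against 12.1% of gene-end regions. In all 10 lists the shares were 9.98% of intergenic and 4.83% of gene-end regions, so the rule left out the most widely called intergenic regions. Signal differed across that limit as well. Strength is given as a rank percentile, the place of a peak by −log10 p within its own list, with 100 the strongest. The median rank percentile was 17.8 over the regions in 1 list, 28.8 over those in 2, 74.0 over those in 9 and 97.9 over those in 10. The regions in all 10 lists lay a median of 85.2 kb from the nearest protein-coding gene, against 20.01 kb for those in 2 lists.

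**Figure D1:**
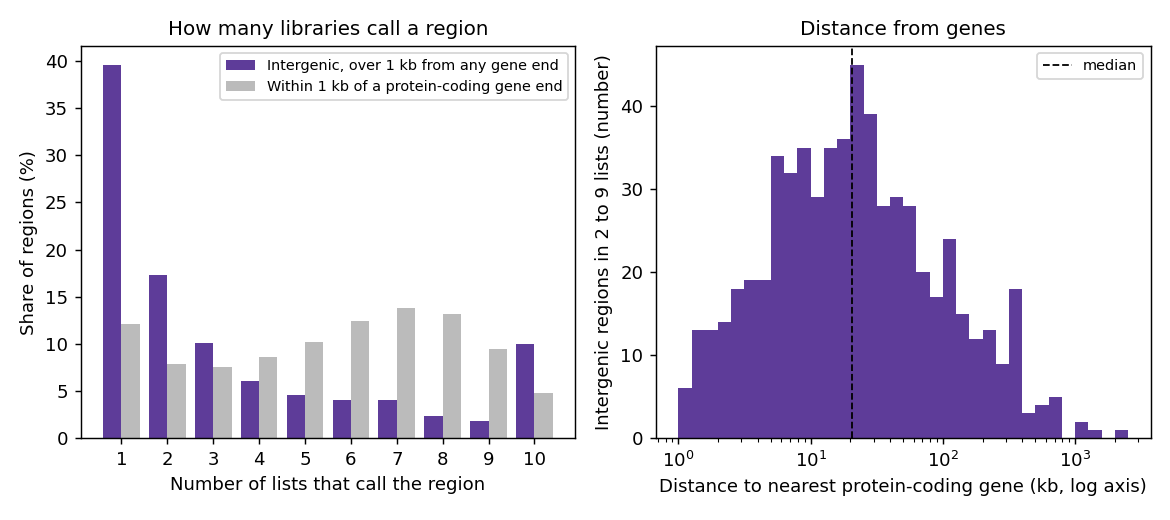
Left, share of regions (%) by the number of lists that call them, for 1222 intergenic and 8342 gene-end regions of any list number. Right, number of the 616 intergenic regions by distance to the nearest protein-coding gene (kb, log axis), with the median of 20.5 kb dashed. Intergenic regions pile up at 1 to 3 lists, with a second, smaller group at 10.

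The median distance to the nearest protein-coding gene was 20.5 kb, with quartiles of 7.14 and 58.0 kb and a range of 1.03 to 2102 kb. The largest class, 241 regions (39.1%), lay at 10 to 50 kb. A further 102 lay at 1 to 5 kb, 101 at 5 to 10 kb, 65 at 50 to 100 kb and 107 beyond 100 kb. At the 1 kb limit, the nearest members were a region 1004 bp from a gene end (nearest protein-coding gene Pde4a), one at 1008 bp (Cdh15) and one at 1029 bp (Hal). Just outside the rule were regions 990 bp from Id1, 987 bp from Psrc1 and 984 bp from Plekhm3. Noncoding gene bodies held 110 of the 616 (97 in lncRNA genes, 8 in pseudogenes, 3 in transcribed pseudogenes and 2 in misc_RNA genes), and 506 overlapped no gene at all. Chromosome 11 held 3.41% of the intergenic regions and 8.22% of all regions in 2 to 9 lists, and X held 3.41% and 1.80%.

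Promoter sequence was at hand for 4 of the 616, through lncRNA genes with an alternative RefSeq transcript start in or beside the region (RefSeq, GRCm38.p6, from 250 bases before to 50 after the start). These starts lie inside the gene body, and the outer gene ends that the rule uses are more than 1 kb away. The 3 windows with the most overlap are shown because they give the bases that were open. Capitals mark bases inside the called intergenic region. The D630033O11Rik window is chr9:43263883-43264182 on the + strand, the Gm33195 window chr13:43864306-43864605 on the + strand, and the Gm41591 window chr17:47988115-47988414 on the − strand.
D630033O11Rik: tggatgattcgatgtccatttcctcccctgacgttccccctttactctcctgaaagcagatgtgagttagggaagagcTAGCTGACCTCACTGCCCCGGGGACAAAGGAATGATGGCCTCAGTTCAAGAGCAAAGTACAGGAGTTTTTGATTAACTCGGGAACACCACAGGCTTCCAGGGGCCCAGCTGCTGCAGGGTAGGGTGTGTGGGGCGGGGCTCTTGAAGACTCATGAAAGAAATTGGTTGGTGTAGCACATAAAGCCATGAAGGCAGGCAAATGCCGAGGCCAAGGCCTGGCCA
Gm33195: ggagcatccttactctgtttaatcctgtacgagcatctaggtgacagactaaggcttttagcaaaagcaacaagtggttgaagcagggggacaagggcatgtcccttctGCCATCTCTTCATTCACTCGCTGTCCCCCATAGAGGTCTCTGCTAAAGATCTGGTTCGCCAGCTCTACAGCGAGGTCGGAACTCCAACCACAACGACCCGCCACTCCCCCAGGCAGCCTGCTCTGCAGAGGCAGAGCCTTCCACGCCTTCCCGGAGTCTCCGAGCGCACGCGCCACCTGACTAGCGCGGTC
Gm41591: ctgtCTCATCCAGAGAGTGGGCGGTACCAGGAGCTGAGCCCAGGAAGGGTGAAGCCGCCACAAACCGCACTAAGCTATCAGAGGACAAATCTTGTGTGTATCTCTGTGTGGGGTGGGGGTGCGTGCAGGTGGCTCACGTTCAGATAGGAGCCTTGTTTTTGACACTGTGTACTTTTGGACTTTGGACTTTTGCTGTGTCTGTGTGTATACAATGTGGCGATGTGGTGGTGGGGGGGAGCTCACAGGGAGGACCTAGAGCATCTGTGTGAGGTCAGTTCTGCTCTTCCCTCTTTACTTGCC
The D630033O11Rik region, 24.1 kb from Oaf, covered 222 bases of its window and was called in Homo 3, WT 1, WT 2 and WT 4, with a rank percentile of 12.6, 13.3, 86.2 and 24.5. The Gm33195 region lay 61.3 kb from Cd83, which encodes a surface protein of activated dendritic cells. It covered 191 bases and was called in Homo 3, Het 1, Het 3 and every WT library. The Gm41591 region covered 296 bases and was called only in Homo 2 (rank percentile 79.0) and WT 1 (71.2). On either strand, the Gm41591 window held 1 match to an HNF4 motif (CAAAGTCCA), which 0.475% of the 32851 RefSeq windows hold, and it lay among the called bases. The Gm33195 window held 1 match to a C/EBP motif (TTGCNNAA), which 10.8% hold, outside the called bases. No match to AP-1 (TGANTCA), FOXA (TGTTTAC), E-box (CACGTG), HNF1 or CTCF core letters was found in the 3 windows. These motifs are held by 7.81% (AP-1), 3.65% (FOXA), 7.15% (E-box), 0.00913% (HNF1) and 0.648% (CTCF core) of RefSeq windows. The Gm33195 window held 15 CpG, against 6 in each of the other two and a median of 7 over RefSeq windows.

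The Homo libraries alone spanned 63 to 452 intergenic regions, and no difference between genotypes passed the test. The intergenic regions called numbered 100, 63 and 452 in Homo 1 to 3, against 195, 137 and 73 in Het 1 to 3 and 503, 414, 193 and 322 in WT 1 to 4. Homo 3 lay within the WT range, and the other Homo libraries lay below every WT library. The mean was 205 ± 215 in Homo (SD, n = 3), 135 ± 61.0 in Het (n = 3) and 358 ± 133 in WT (n = 4). Homo minus WT was -153 regions (exact permutation p = 0.314, Benjamini-Hochberg adjusted over 12 tests 0.539). Het minus WT was -223 (exact permutation p = 0.0857, adjusted 0.514), and Homo minus Het was 70 (exact permutation p = 0.9, adjusted 0.982). With 4 against 3 libraries the smallest two-sided p is 0.0286, and with 3 against 3 it is 0.1, so Homo against Het could not pass 0.05. The counts rest on the calls that chose the members, so they describe the members and give no independent support. Depth was lower in each Het than in each WT library. After every list was thinned to the depth of Homo 2, Homo minus WT was -72.1 regions (exact permutation p = 0.2), Het minus WT was -64.1 (exact permutation p = 0.229) and Homo minus Het was -8.00.

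Relative to all regions in 2 to 9 lists that a library called, intergenic regions made up 3.34%, 5.96% and 5.54% in Homo 1 to 3, 3.95%, 3.54% and 3.93% in Het 1 to 3, and 6.23%, 5.71%, 3.38% and 4.42% in WT 1 to 4. The Homo and WT ranges nearly coincided, with means of 4.94% ± 1.41 in Homo and 4.94% ± 1.28 in WT (SD, n = 3 and 4). The 3 Het libraries lay close together, at a mean of 3.81% ± 0.231 (SD). Homo minus WT was 0.00836 percentage points (exact permutation p = 1), Het minus WT was -1.13 (exact permutation p = 0.286) and Homo minus Het was 1.14 (exact permutation p = 0.4). The Homo minus WT share depended on the setting, at 2.68 points with 50% overlap (exact permutation p = 0.4) and 1.93 with −log10 p of at least 10 (exact permutation p = 0.371).

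**Figure D2:**
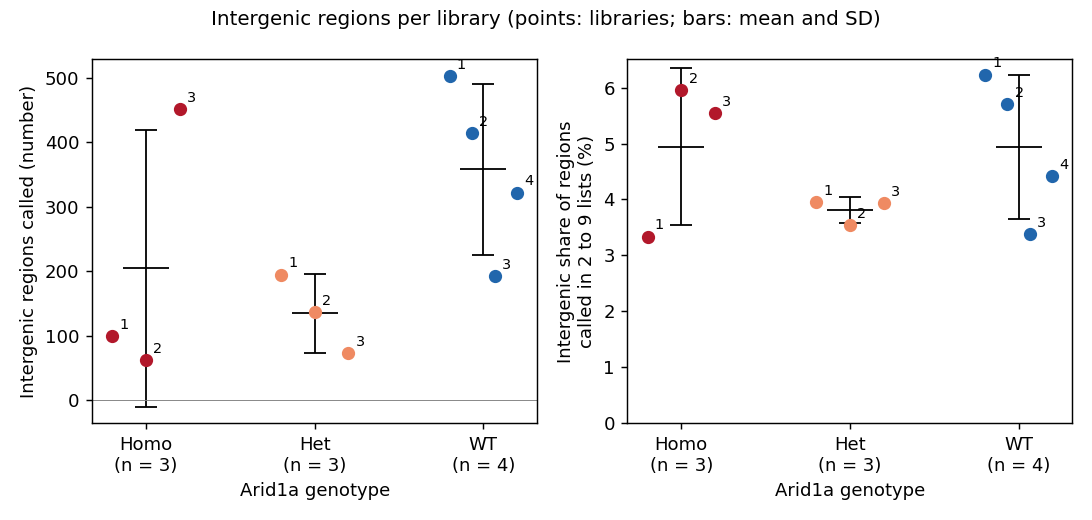
Number of intergenic regions called (left) and their share of the regions in 2 to 9 lists that the library called (right, %), by Arid1a genotype. Numbered points are libraries, long and short bars the mean and SD. Homo spans 63 to 452 regions and overlaps both Het (73 to 195) and WT (193 to 503).

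The intergenic regions a library called ranked at a median of 62.3, 70.7 and 37.8 in Homo 1 to 3, against 49.7, 45.1 and 63.1 in Het 1 to 3 and 43.5, 48.9, 45.1 and 40.2 in WT 1 to 4. The shortest lists, Homo 2, Het 3 and Homo 1, held the highest medians. Homo minus WT was 12.5 percentile points (exact permutation p = 0.257), Het minus WT 8.23 (exact permutation p = 0.143) and Homo minus Het 4.30 (exact permutation p = 0.8). Median distance to a protein-coding gene was 31.7, 26.6 and 19.8 kb in Homo 1 to 3, 22.1, 22.6 and 31.6 kb in Het 1 to 3, and 19.7, 20.8, 24.0 and 18.4 kb in WT 1 to 4. Its differences were 5.26 kb for Homo minus WT (exact permutation p = 0.171), 4.67 kb for Het minus WT (exact permutation p = 0.171) and 0.594 kb for Homo minus Het (exact permutation p = 0.9). None of the 12 tests passed 0.05, before or after adjustment.

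Set against gene-end regions of the same libraries, intergenic regions were narrower, while the difference in rank depended on the setting. Their median width was below that of gene-end regions in 10 of 10 libraries, by 22 to 125 bp, with a mean of medians of 262 bp against 335 bp (difference -72.7 bp ± 35.6, SD; exact sign-flip permutation p = 0.00195, the smallest that 10 libraries allow). Among regions in the same number of lists the gap was smaller, at -36.0 bp, and again negative in 10 of 10 libraries. Summits of a region in different libraries spread over a median of 82 bp at intergenic regions and 170 bp at gene-end regions. The spread grows with the number of lists, and was 38 against 61 bp in 2 lists and 195 against 267 bp in 9 lists. The pooled rank did not pass the test, at 2.34 percentile points above gene-end regions (SD 15.1, higher in 4 of 10 libraries, exact sign-flip permutation p = 0.635). When regions of equal list number were compared, the difference was 11.5 points (exact sign-flip permutation p = 0.00391). It was higher in 9 of 10 libraries, with Homo 3 the exception. Each list number had the same weight there, however few regions it held, and list number is part of the rule. At equal depth, without matching list number, the difference was 8.84 (exact sign-flip permutation p = 0.0234, a comparison chosen after the data were seen).

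Calls were less complete at intergenic than at gene-end regions in every library, with a gap that varied. Homo 1, 2 and 3 called 16.2%, 10.2% and 73.4% of the intergenic and 35.6%, 11.8% and 90.7% of the gene-end regions. Het 1 called 31.7% and 57.6%, Het 2 22.2% and 46.1%, and Het 3 11.9% and 21.9%. Among WT libraries, WT 1 called 81.7% and 88.3%, WT 2 67.2% and 80.9%, WT 3 31.3% and 67.9%, and WT 4 52.3% and 83.8%. WT 4 had 1.40 background tags and called 322 intergenic regions, against 1.13 and 414 in WT 2. The part of depth in these gaps was not tested.

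Homo 3, WT 1 and WT 2 shared intergenic calls beyond their genotypes. Of the 616, 190 regions (30.8%) were called in no library outside these 3, against 422 of 6932 gene-end regions (6.09%). Among regions in 3 lists the shares were 52.8% of intergenic and 22.7% of gene-end regions, and in 2 lists 59.0% and 42.7%. Thinned to equal depth, 81 of 386 intergenic (21.0%) and 271 of 6014 gene-end regions (4.51%) had this pattern. These 3 libraries were picked for their shared calls, so the shares are a description. Homo 3 and WT 1 had 398 calls in common of 557 in either (Jaccard index 0.715). The index was 0.614 for WT 1 and WT 2, and 0.604 for Homo 3 and WT 2. Over gene-end regions the same pairs had higher indices, at 0.857, 0.799 and 0.804. Over intergenic regions the index averaged 0.128 within Homo (3 pairs), 0.265 within Het (3 pairs) and 0.442 within WT (6 pairs). Between genotypes it averaged 0.286 for Homo and WT (12 pairs), 0.275 for Het and WT (12 pairs) and 0.213 for Homo and Het (9 pairs). Without these 3 libraries, 272 of the 616 (44.2%) remained called in at least 2 lists. The share was 80.1% for gene-end regions and 74.1% for all regions in 2 to 9 lists.

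**Figure D3:**
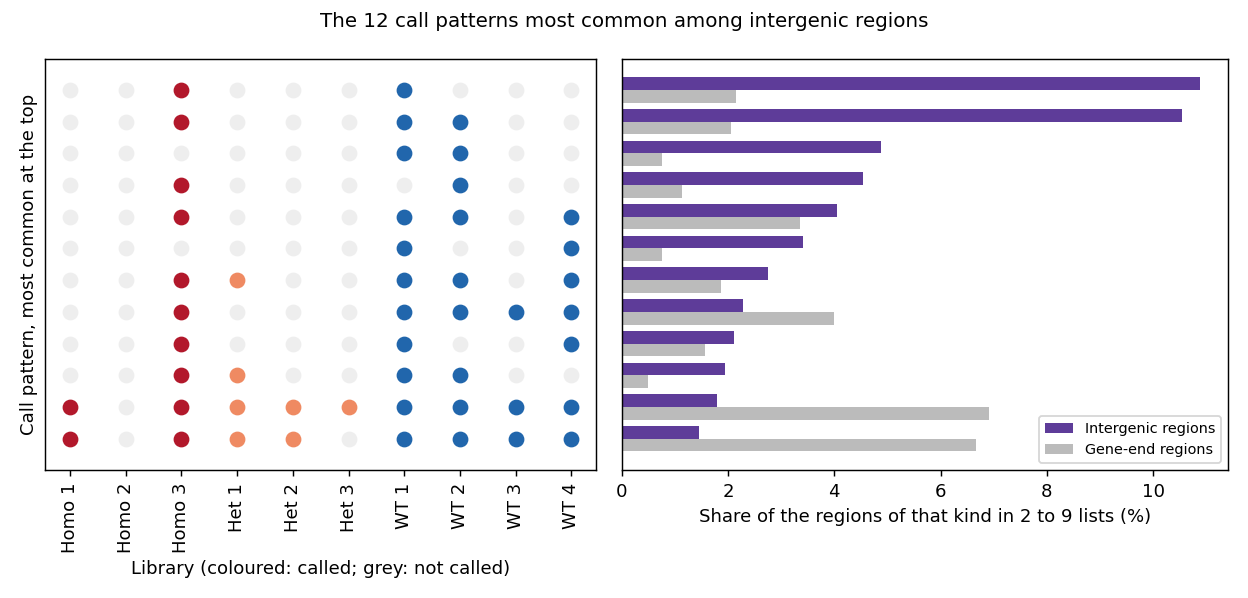
Left, the 12 most common call patterns among the intergenic regions, with called libraries coloured. Right, the share (%) of the 616 intergenic and of the 6932 gene-end regions with each pattern. Homo 3 with WT 1 (67 regions) and Homo 3 with WT 1 and WT 2 (65 regions) lead.

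The strongest region of the Homo 3, WT 1 and WT 2 pattern lay at chr19:37442513-37443166, 1.78 kb from Hhex, which encodes a homeobox factor needed for the liver bud to form. It had 45 tags at its summit in Homo 3, 29 in WT 1 and 35 in WT 2, and the deposited fold over local background was 10.8, 8.15 and 9.33. Its rank percentile was 97.4, 82.0 and 97.1, so it was among the stronger peaks of all 3 lists and in no other list. A region 22.0 kb from Cebpa, the C/EBP factor of mature hepatocytes, had 22, 32 and 27 tags and a rank percentile of 32.5, 83.3 and 86.9 in the same libraries. The Hhex region was singled out after its values were seen. At equal depth the Hhex region was called in Homo 3 and WT 2, and the Cebpa region in WT 1 and WT 2.

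Few intergenic regions followed genotype. Against WT, none of the 616 was called in every Homo and no WT library, where 0.0215% of all regions in 2 to 9 lists were (2 of 9286). Calls in every WT and no Homo library were found at 3 (0.487%), near the background of 0.377%. For Het, none was called in every Het and no WT library, with a background of 0.0108%. The reverse, every WT and no Het library, held for 21 (3.41%), under the background of 5.36%. Between the Cre groups, 1 (0.162%) was in every Homo and no Het library, with a background of 0.345%, and 1 in every Het and no Homo library, with a background of 0.0862%. Single libraries moved these small counts. With a library left out or at equal depth, no share over all regions was computed, so such counts are a description. Without Homo 2 or Homo 3, 1 and 2 regions were in every Homo and no WT library, and without Het 1 or Het 2, 3 and 1 were in every Het and no WT library. The 1 in every Homo and no Het library became 8, 12 and 4 without Homo 1, Homo 2 and Homo 3, and 2 without Het 1.

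The 3 regions in every WT and no Homo library ranked at or below the 60th percentile of each list that called them. One lay at chr10:95681011-95681334, 117 kb from Nudt4, which encodes a phosphatase of inositol pyrophosphates. It had 24, 16, 15 and 16 summit tags in WT 1 to 4, and 10 in Het 1. At chr5:135903655-135904128, 4.25 kb from Ywhag, which encodes a 14-3-3 protein, the tags were 21, 15, 15 and 14 in WT 1 to 4 and 12 in Het 3. The region at chr2:152029288-152029759, 20.03 kb from the riboflavin transporter gene Slc52a3, had 15, 11, 12 and 16 tags in WT 1 to 4 and no other call. The smallest summit in the lists of WT 1 to 4 had 10, 8, 8 and 10 tags. At equal depth, calls were left in WT 3 and WT 4 for Nudt4, in Het 3 and WT 3 for Ywhag, and in WT 1, WT 3 and WT 4 for Slc52a3. With so few tags, which calls are left rests on the draw used for thinning, and other draws were not made. Leaving out Homo 3 brought the count of regions in every WT and no Homo library to 58. It was 9 without Homo 1, 6 without Homo 2 and 13 without WT 3. The same counts over all regions were not made.

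Of the 21 regions in every WT and no Het library, the strongest lay 27.7 kb from Sfi1, which encodes a centrosome protein. It had 28 and 18 summit tags in Homo 1 and Homo 2, and 55, 45, 36 and 44 in WT 1 to 4, but no call in Het or Homo 3. Its local background was 4.22 times the library level, and the part of that in the calls was not tested. The next were near Fam229a (8.75 kb), Psen2 (16.2 kb, a catalytic subunit of gamma-secretase), Ipo5 (64.5 kb, a nuclear import receptor), Bnip3 (9.77 kb, a mitophagy receptor) and Ptpdc1 (30.9 kb, a phosphatase). Homo 3 called the last 5, and Homo 1 called those near Ipo5 and Ptpdc1. The Ptpdc1 region was also the 1 in every Homo and no Het library, with 13, 9 and 29 tags in Homo 1 to 3 and 32, 16, 18 and 17 in WT 1 to 4. At equal depth, 3 regions held the pattern of every WT and no Het library. With all 4 WT libraries in place, the count was 36 without Het 1 and 32 without Het 2. It was 60 without WT 3. No background over all regions was computed for these counts.

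The region in every Het and no Homo library was strong wherever it was called. It lay at chr9:24541942-24542250, 14.8 kb from Dpy19l2, a gene needed for sperm head shaping. Summit tags were 45, 33 and 28 in Het 1 to 3 and 45, 53 and 93 in WT 1, WT 2 and WT 4, and the rank percentile was 95.2 to 99.4. WT 3 and all Homo libraries had no call, and calls at equal depth were the same. Homo 1, at 0.914 background tags, was deeper than each Het library but called 3863 regions, against 5796 in Het 1 and 4666 in Het 2. The part of depth in the missing calls was not tested. Without Homo 3 there were 10 regions in every Het and no Homo library. There were 4 without Het 3, and 2 without Homo 1 or Het 1. These counts, too, have no share over all regions beside them.

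**Figure D4:**
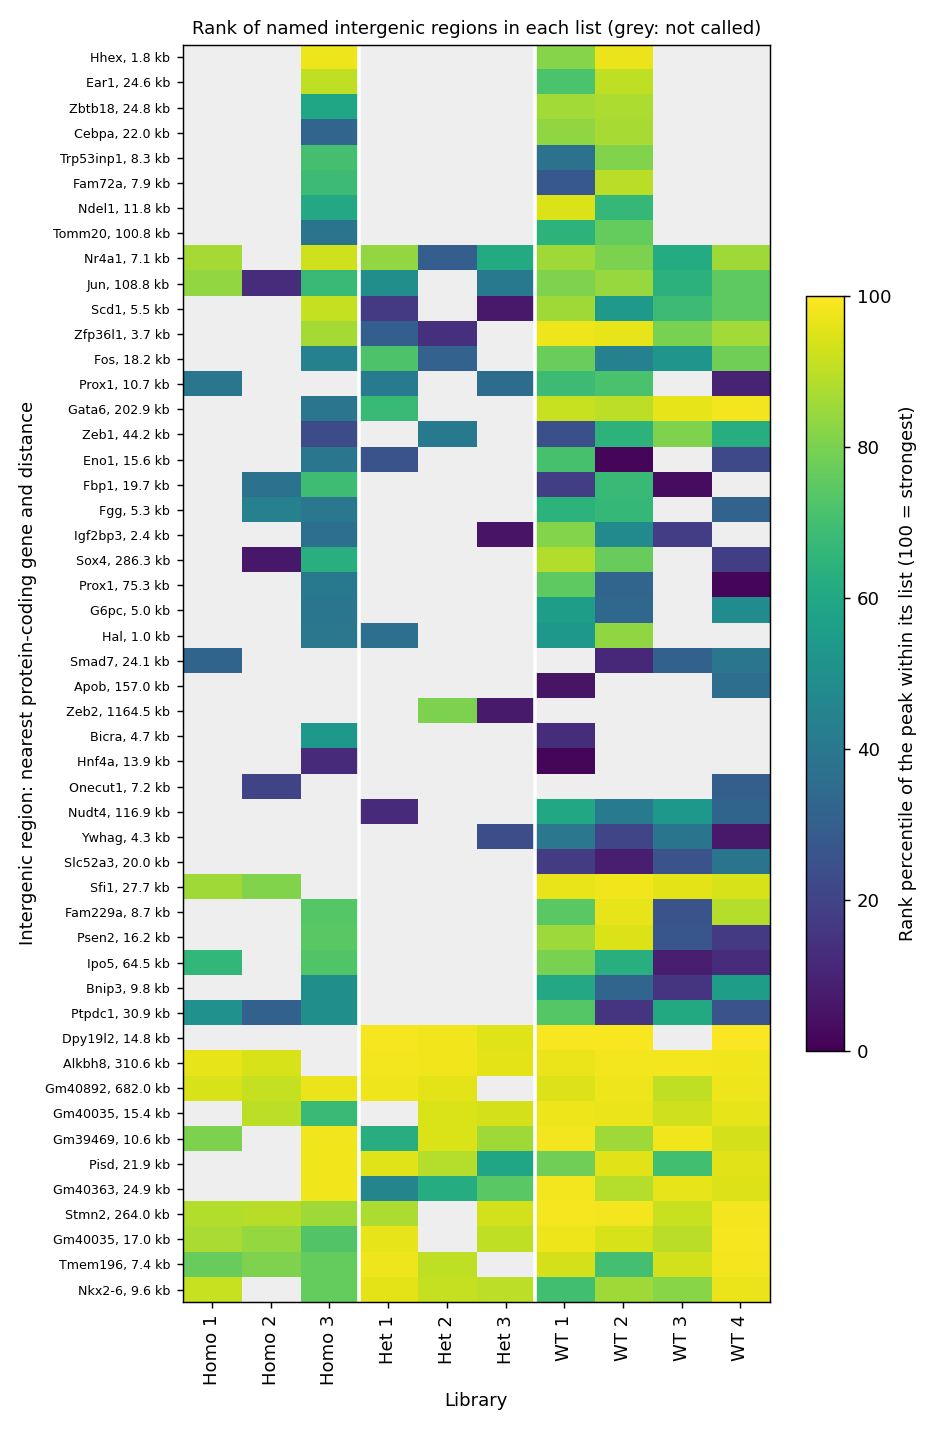
Rank percentile within each list (colour, 100 the strongest) of intergenic regions named by nearest protein-coding gene and distance, in the 3 Homo, 3 Het and 4 WT libraries. Grey marks no call. The upper 8 rows were called only in Homo 3, WT 1 and WT 2, while the Dpy19l2 row is bright in Het and most WT libraries and grey in Homo.

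Among 15 gene lists, immediate early and stress genes had the most intergenic regions nearest to them, with 13 at 10 of 28 genes. Over all 21627 protein-coding genes, 545 were nearest to at least 1 intergenic region. The lists differ in size, from 5 to 38 genes, so their counts are not ranked further. These genes, which include the AP-1 subunits Fos and Jun, are switched on within minutes of a stimulus. Homo 1 to 3 called 2, 1 and 12 of the 13, and Het 1 to 3 called 6, 3 and 2. WT 1 to 4 called 11, 12, 7 and 8 of them. Of all the intergenic regions, Homo 1 to 3 called 16.2%, 10.2% and 73.4%, and Het 1 to 3 called 31.7%, 22.2% and 11.9%. WT 1 to 4 called 81.7%, 67.2%, 31.3% and 52.3%. Whether calls near these genes depart from such shares was not tested. The region 7.07 kb from Nr4a1, an orphan nuclear receptor, had 17 and 37 summit tags in Homo 1 and Homo 3, 19, 11 and 13 in Het 1 to 3, and 31, 23, 16 and 25 in WT 1 to 4. Homo 2 alone lacked it, and at equal depth the same 9 libraries called it. A region in the lncRNA gene Junos, 109 kb from Jun, had 18, 8 and 27 tags in Homo 1 to 3, 15 and 11 in Het 1 and Het 3, and 29, 23, 15 and 22 in WT 1 to 4. Only Het 2 lacked a call there.

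The region 3.74 kb from Zfp36l1, whose protein promotes decay of AU-rich mRNAs, had 35 tags in Homo 3, 13 and 10 in Het 1 and Het 2, and 41, 31, 17 and 26 in WT 1 to 4. The 18.2 kb region of Fos had 21 in Homo 3, 15 and 11 in Het 1 and Het 2, and 26, 18, 16 and 24 in WT 1 to 4. Neither was called in Homo 1, Homo 2 or Het 3. Near Socs3, a feedback inhibitor of cytokine signalling, a region at 2.31 kb was called in Homo 3, Het 1 and every WT library.

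Liver transcription factors had 10 regions nearest to 8 of 25 genes, and none was in every library of a genotype and absent from another. The most common such pattern (every WT, no Het) held for only 3.41% of all the intergenic regions, so 10 regions are too few to show a departure. Homo 1 to 3 called 2, 1 and 6 of the 10, and Het 1 to 3 called 3, 0 and 1. WT 1 to 4 called 8, 7, 1 and 4 of them. Over all the intergenic regions the shares were 16.2%, 10.2% and 73.4% in Homo, and 31.7%, 22.2% and 11.9% in Het. In WT they were 81.7%, 67.2%, 31.3% and 52.3%. A departure from these shares was not tested. Besides the Cebpa region described above, there was another at 28.5 kb, in Het 1 and WT 2. Prox1, a homeobox factor of early liver and lymphatic cells, had regions at 10.7 kb (6 lists) and 75.3 kb (4 lists). The region 203 kb from Gata6, a zinc-finger factor of endoderm, had 18 tags in Homo 3, 13 in Het 1, and 28, 21, 22 and 32 in WT 1 to 4. That of Foxa2, a pioneer factor, lay at 73.9 kb and was in Homo 3, WT 1 and WT 2. Hnf4a and Cebpb each had a region in Homo 3 and WT 1 only, Onecut1 had one in Homo 2 and WT 4, and Ppara, the nuclear receptor of fatty acid oxidation, had one in Homo 1, WT 1 and WT 2.

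Metabolic enzymes of liver had 5 regions nearest to 5 of 36 genes, and Homo 3, WT 1 and WT 2 called all 5. The region 5.48 kb from Scd1, the stearoyl-CoA desaturase, had 36 tags in Homo 3, 10 and 9 in Het 1 and Het 3, and 29, 17, 17 and 22 in WT 1 to 4. That of G6pc, the catalytic subunit of glucose-6-phosphatase, lay at 4.99 kb and had 20 tags in Homo 3 and 25, 15 and 19 in WT 1, WT 2 and WT 4. At 19.7 kb from Fbp1, another enzyme of gluconeogenesis, there were 8 and 27 tags in Homo 2 and Homo 3 and 16, 21 and 9 in WT 1 to 3. Outside Homo 3, Homo libraries called 1 of these 5 regions. These counts stand beside 16.2%, 10.2% and 73.4% of all 616 regions called in Homo 1 to 3, and 81.7% and 67.2% in WT 1 and WT 2.

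The other lists had fewer. Secreted plasma proteins had 2 (Fgg in 5 lists, Apob in 2), fetal liver and oncofetal genes 2 (Sox4 and Igf2bp3, 5 lists each), and MYC-regulated growth genes 1 (Eno1, 5 lists). Migration, invasion and metastasis genes had 3, at 44.2 kb from Zeb1 (6 lists), 24.1 kb from Smad7 (4) and 1164 kb from Zeb2 (2). The Zeb2 region was called only in Het 2 and Het 3, with 13 and 8 summit tags and a rank percentile of 80.3 and 7.24. SWI/SNF subunits had 1, near Bicra, in Homo 3 and WT 1. As to cell types, 1 region was nearest to a hepatocyte marker (Hnf4a, of 8) and 1 to a cholangiocyte marker (Onecut1, of 6). No region was nearest to a marker of endothelial cells (6 genes), stellate cells and fibroblasts (7), macrophages (6), lymphocytes and neutrophils (7) or erythroid cells (5). The lists were small, and an intergenic region is a weak marker of a cell type.

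Of the 10 strongest intergenic regions in 8 or 9 lists, 7 sat where local background was over 3 times the library level. Called intergenic regions had a local background over 3 times the library level in 17.0%, 17.5% and 5.97% of cases in Homo 1 to 3, in 9.74%, 16.1% and 24.7% in Het 1 to 3, and in 6.36%, 8.21%, 14.5% and 9.63% in WT 1 to 4. The mean was 12.96% ± 5.98 at intergenic against 1.98% ± 0.599 at gene-end regions, and intergenic regions were higher in 10 of 10 libraries (exact sign-flip permutation p = 0.00195, a comparison chosen after the data were seen). In all, 44 of the 616 (7.14%) had a median local background over that limit, 16 of them beyond 100 kb from a protein-coding gene.

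**Figure D5:**
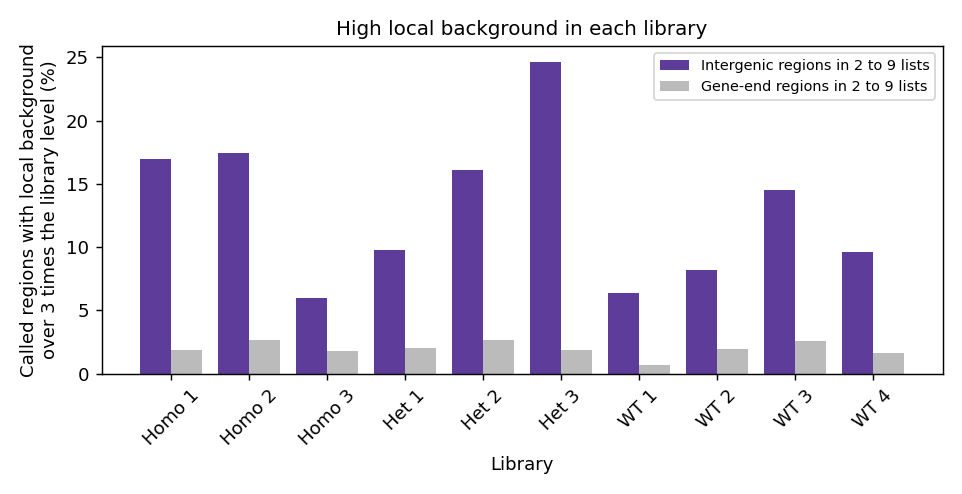
Percent of called regions whose local background was over 3 times the library level, for intergenic (left bar) and gene-end regions (right bar) in 2 to 9 lists, by library. The intergenic bar is the taller in each library.

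The cluster with the most regions lay near the start of chromosome 9, where 11 regions stood between positions 3004061 and 3036328, 299 to 331 kb from Alkbh8, which encodes a tRNA-modifying enzyme. Their local background was 80.7 to 134 times the library level. The strongest, chr9:3024386-3024623, had 252 and 213 summit tags in Homo 1 and Homo 2, 254, 245 and 235 in Het 1 to 3, and 297, 279, 270 and 298 in WT 1 to 4. Its deposited fold over local background was only 2.26 and 2.64 in Homo 1 and Homo 2, 2.53 to 2.57 in Het and 2.12 to 2.28 in WT. It reached a rank percentile of 93.9 to 98.3 with no call in Homo 3. A second cluster of 5 regions near Gm40363 and Pdia4 spanned 28.4 kb on chromosome 6, and Homo 3, Het 2 and each WT library called all 5 of them.

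By contrast, the region at chr12:93576964-93577243, 682 kb from Gm40892, had a deposited fold of 10.9, 11.7 and 13.8 in Homo 1 to 3, 14.0 and 11.9 in Het 1 and Het 2, and 10.9, 12.7, 9.57 and 12.6 in WT 1 to 4. It was called in 9 lists, also at equal depth. Others among the 10 strongest in 8 or 9 lists were near Gm40035 (a pair on chromosome 2), Gm39469, Pisd, Gm40363, Stmn2 (264 kb), Tmem196 and Nkx2-6. Of the 616, 118 (19.2%) had another within 50 kb, and 42 fell into 10 groups of at least 3. The gene nearest to the most regions after Alkbh8 was Irf2bp2, which encodes a transcriptional corepressor, with 7 regions at 3.76 to 143 kb. Of these, 1 was called in 9 lists (all but Het 3) and the others in 2 to 5.

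The farthest region, 2102 kb from Pcdh9, a protocadherin gene, lay at chr14:90911104-90911350. It had 14 and 12 summit tags in Het 1 and Het 2 and 16, 15 and 20 in WT 2, WT 3 and WT 4, and the same 5 libraries called it at equal depth. No Homo library called it. The 1122 kb region of Cited2, a transcriptional coactivator gene, had 12 tags in Homo 3 and 26, 14, 10 and 24 in WT 1 to 4. The remaining 4 of the 6 farthest, near Zeb2 (1164 kb), Vmn2r121, Gm6760 and 4932411N23Rik, were each called in 2 lists.

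In several libraries the share of regions called differed between the farthest and the nearest distance class. Beyond 100 kb, Homo 1 called 27.1% of 107 regions and Homo 2 17.8%, against 6.86% and 7.84% of the 102 regions at 1 to 5 kb. Het 3 called 20.6% and 4.90% of the same classes. Het 1 called 33.6% and 26.5%, Het 2 28.0% and 17.6%, and WT 3 42.1% and 24.5%. In Homo 3 and WT 1 the far share was the lower one, with 58.9% of the far and 76.5% of the near regions in Homo 3, and 76.6% and 83.3% in WT 1. The shares lay close together in WT 2 (64.5% and 60.8%) and WT 4 (52.3% and 53.9%). Between these classes, at 5 to 10, 10 to 50 and 50 to 100 kb, Homo 1 called 13.9%, 16.2% and 16.9%, a steady rise. There was no steady rise in Homo 2 (9.90%, 8.71% and 7.69%), Het 3 (11.9%, 11.6% and 9.23%) or WT 3 (31.7%, 30.7% and 26.2%). With the 11 Alkbh8 regions left out, the far class gave 22.9% in Homo 1, 13.5% in Homo 2, 61.5% in Homo 3 and 15.6% in Het 3. Regions share libraries, so these shares are a description.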

How the data were processed

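ATAC-seq libraries of 3 Homo, 3 Het and 4 WT liver tumours were analysed from 1 narrowPeak list each. The submitters' processing notes name Bowtie2, MACS2, deepTools and the mm10 build, with settings, read filters, transposase shift and read totals not given in the sources used here. Peaks were called per library. Each row of the deposited lists holds a score, a fold (a ratio of summit pileup over local background), −log10 p and −log10 q, all the authors' own values, and they were used here only to describe, rank and filter peaks within a list.

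Rows that overlapped were merged within a list and joined over lists (overlap of 1 bp) with Python 3.11.15 and pandas 2.3.3. Gene positions came from a RefSeq table (GRCm38.p6, which shares mm10's primary coordinates) with 49550 genes on these chromosomes, 21627 of them protein-coding. The table has no strand or exons, so distance is to the nearer gene end. Summit tags and background per 200 bp were recovered from fold and −log10 p for 100% of rows (tolerance 0.001). They were not checked against read totals. For equal depth, summit tags were thinned by a single seeded draw to match Homo 2 and kept at −log10 p of at least 5. Peaks were not called again, and how calls at named regions vary between draws was not tested.

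Values per library were compared between groups by exact two-sided permutation and, within libraries, by exact sign flips. The 12 genotype tests were adjusted by Benjamini-Hochberg, and the depth recovery and tests were run on simulated data. Alternatives were each library left out, a replicate block, −log10 p of at least 10, equal depth, 50% overlap, the same number of lists, merging within 100 bp and limits of 5 and 10 kb. The members, gene lists and naming rule (regions that follow genotype, the strongest, the farthest, clusters, and those nearest to listed genes) were chosen with earlier results of these data known. Motifs inside most regions and repeats were not analysed here. Correlations of deviations from group means between same-numbered libraries ranged across zero, so replicate numbers were not taken as pairs.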

Additional observations from a re-analysis of the deposited data

How the results depend on the processing

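Homo against Het has too few libraries to pass 0.05 under any alternative. Neither could any genotype comparison pass with a library left out or with a replicate block. In the other settings no difference of Homo against WT passed 0.05. Of Het against WT only rank did, at 17.8 percentile points with 50% overlap (exact permutation p = 0.0286). Over all alternatives its p ranged from 0.0286 to 0.5 (exact permutation, with sign flips for the replicate block). Several signs turned, and the cause was not tested. Among differences from WT that kept their sign, Homo rank was 0.321 points with −log10 p of at least 10, and Homo distance reached 21.8 kb beyond 10 kb. Equal depth gave Homo minus Het -8.00 regions, -0.176 rank points and -0.0958 kb. A replicate block, which leaves out WT 4, gave a Homo minus WT share of -0.163 points. With 3 pairs it could not pass 0.05, so it could not change a call in that direction. Same-numbered libraries did not vary together. With 50% overlap, Het minus WT share was 0.443 points, and Homo minus Het was -3.81 rank points and -1.78 kb. Homo minus Het rank was -7.24 with −log10 p of at least 10, -1.31 beyond 5 kb and -2.59 beyond 10 kb, and distance was -0.607 kb beyond 5 kb. Leaving out each library gave -53.5 to 141 regions for Homo minus Het, a share of -0.509 to 0.812 points for Homo minus WT, -2.58 to 13.9 rank points and -2.24 to 3.71 kb for Homo minus Het, and -0.599 to 4.48 rank points against gene-end regions. That last difference was 11.5 at the same number of lists and 8.84 at equal depth, both past 0.05. Counts over libraries left out were 0 to 2 (every Homo, no WT), 3 to 58 (every WT, no Homo), 0 to 3 (every Het, no WT), 24 to 60 (every WT, no Het), 1 to 12 (every Homo, no Het) and 1 to 10 (every Het, no Homo). At equal depth they were 5 for every WT and no Homo, 3 for every WT and no Het, 0 for every Homo and no Het and 3 for every Het and no Homo. Beyond 10 kb they were 1, 9 and 0 for the first 3 of these, and 50% overlap also gave 0 for every Homo and no Het. None of these alternative counts has a share over all regions beside it. The number of intergenic regions was 386 at equal depth, 404 beyond 5 kb, 256 beyond 10 kb and 272 in at least 2 libraries other than Homo 3, WT 1 and WT 2. The last of these, and equal depth for this number and for the gene-end comparison, were chosen after seeing the data. The other 194 values kept direction and side of the threshold or, for counts, stayed within 1.5 times. Low depth in Homo 2 (6 tags for the smallest summit) limits what a missing call there shows.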
